A study of Mus musculus with 10 samples.

Results

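The open chromatin of AHR KO colon organoids was compared with that of WT organoids in the undifferentiated medium WENR, using the 5 WENR libraries of 10 in the series, 3 from AHR KO and 2 from WT organoids. The members were chosen by medium alone, with both genotypes taken as labelled. Organoids are cultures grown from crypts, here from whole mouse colon. AHR KO organoids came from Villin-Cre *Ahr* fl/fl mice, in which Cre is driven by the *Villin* promoter in gut epithelium, and the WT controls were littermates on the same C57BL/6 background. The floxed allele is a tm1c allele made from knockout-project ES cells, and the sources used here do not say whether the wild-type littermates carried it without Cre. WENR holds EGF, Noggin, R-spondin1 and Wnt3a with SB202190, A83-01 and nicotinamide, and the organoids were kept in it for 4 to 5 days. Each library was made by Omni-ATAC from 50000 sorted live cells and 10 PCR cycles. The other 5 libraries, from organoids differentiated for 4 days without Wnt3a (d4 ENR), enter only where the same regions are looked up there. The methods speak of biological replicates for crypt isolation but do not tie them to these libraries, so every p-value measures only the spread between the libraries, part of which may be technical.

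AHR is a transcription factor of the bHLH-PAS family that binds small molecules from diet, microbes and metabolism, pairs with ARNT in the nucleus and switches on genes such as *Cyp1a1* and *Cyp1b1*, whose enzymes in turn clear its ligands. In the gut it takes part in barrier repair and in the return of epithelial cells from a regenerative to a mature state. ATAC-seq reads where a transposase can cut, so a peak marks a stretch of accessible chromatin such as a promoter or an enhancer. Factors such as CDX2 and HNF4 hold open enhancers of the mature intestine, while AP-1 and TEAD sites are typical of regenerating and fetal-like epithelium.

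Peak height was the pileup that the peak caller gave, the mean number of fragments over the peak. Within each library it was divided by the library's median over the regions tested, so that a height of 1 is the library's median. Regions are peaks of the 5 libraries merged on any overlap of 1 bp or more, and each is named by the protein-coding gene whose start is nearest to its midpoint. The regions with the largest height differences in each direction are shown by their central 300 bases (GRCm38, plus strand), so that the letters searched for below can be seen in place. Capitals in these 4 windows mark a match to any of the 9 motifs searched, on either strand.
*Mboat2* region, chr12:24844482-24844781: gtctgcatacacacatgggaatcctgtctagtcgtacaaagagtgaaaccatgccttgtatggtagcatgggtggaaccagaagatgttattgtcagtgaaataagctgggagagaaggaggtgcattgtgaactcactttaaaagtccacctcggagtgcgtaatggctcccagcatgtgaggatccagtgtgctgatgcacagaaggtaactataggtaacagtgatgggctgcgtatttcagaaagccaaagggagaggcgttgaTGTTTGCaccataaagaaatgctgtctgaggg
*Stk39* region, chr2:68431026-68431325: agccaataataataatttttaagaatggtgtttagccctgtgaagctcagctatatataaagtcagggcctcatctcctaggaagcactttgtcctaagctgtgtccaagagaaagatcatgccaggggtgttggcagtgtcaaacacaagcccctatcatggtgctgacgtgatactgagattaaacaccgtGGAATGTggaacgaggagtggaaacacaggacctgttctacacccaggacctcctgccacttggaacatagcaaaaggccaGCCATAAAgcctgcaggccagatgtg
*Dact1* region, chr12:71408865-71409164: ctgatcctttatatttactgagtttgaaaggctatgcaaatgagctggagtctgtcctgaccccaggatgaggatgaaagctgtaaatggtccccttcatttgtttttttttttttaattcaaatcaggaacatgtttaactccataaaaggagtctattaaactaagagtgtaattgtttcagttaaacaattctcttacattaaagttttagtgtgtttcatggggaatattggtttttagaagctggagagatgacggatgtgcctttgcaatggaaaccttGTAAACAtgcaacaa
*Adam28* region, chr14:68717645-68717944: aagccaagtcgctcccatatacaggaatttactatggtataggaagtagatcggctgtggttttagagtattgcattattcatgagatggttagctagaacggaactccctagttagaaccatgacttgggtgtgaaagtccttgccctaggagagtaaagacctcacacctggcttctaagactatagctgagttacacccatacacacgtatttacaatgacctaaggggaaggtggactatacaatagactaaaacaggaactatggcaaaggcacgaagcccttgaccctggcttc
The window at *Mboat2*, taller in AHR KO, holds FOXA letters, and that at *Stk39*, also taller, holds TEAD and CDX2 letters. The window at *Dact1*, lower in AHR KO, holds FOXA letters, and that at *Adam28* holds none of the 9. Of the called regions that do hold AP-1 or CDX2 letters, those with the largest differences are shown next with 40 bases on each side of the match. They were chosen for the match after their values were seen, the first 2 among taller regions for AP-1 and the last 2 among lower regions for CDX2, and capitals mark only those letters. The shares of all called regions with these letters, which occur in both directions, are given below.
*Drd5* region, chr5:38298907-38298993: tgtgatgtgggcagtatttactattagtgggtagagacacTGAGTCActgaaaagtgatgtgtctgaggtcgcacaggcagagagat
*Tenm3* region, chr8:48490267-48490353: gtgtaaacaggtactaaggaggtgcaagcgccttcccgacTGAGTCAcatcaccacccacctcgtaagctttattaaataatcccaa
*Ntsr2* region, chr12:16726508-16726595: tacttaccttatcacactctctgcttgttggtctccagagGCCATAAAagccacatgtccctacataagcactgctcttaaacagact
*Tmem117* region, chr15:94793423-94793510: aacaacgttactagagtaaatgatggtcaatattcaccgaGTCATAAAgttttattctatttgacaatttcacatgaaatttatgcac
At *Tmem117* heights were 2.72 and 2.42 in WT and 1.18, 0.898 and 0.664 in AHR KO (limma, log2 difference −1.53, adjusted p = 0.007), and the heights at the other regions follow with the results.

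The 5 libraries held 41686181 to 49126792 fragments, gave 61485 to 65308 peaks each, and correlated in log2 height at r = 0.955 to 0.986 between pairs of libraries, which share regions and caller. AHR KO replicate 3 was the library farthest from WT, at r = 0.955 and 0.967. AHR KO replicate 1 correlated with the WT libraries at r = 0.982 and 0.981 and with AHR KO replicate 3 at 0.974, so these correlations did not separate the genotypes. The share of fragment coverage inside peaks was 63.0% and 66.5% in WT and 67.2%, 68.3% and 68.6% in AHR KO libraries, so the groups did not overlap in this share (exact permutation test, 2-sided, p = 0.2, the smallest that 10 arrangements allow). All 11 epithelial markers, such as *Epcam* and *Vil1*, were covered by peaks, with a summed coverage of 2489 to 2688 ppm of the library's coverage in peaks in AHR KO and 2624 to 2680 in WT libraries. The 10 fibroblast markers summed to 81.9 to 101 in AHR KO and 68.4 to 90.7 in WT, with 3 of the 10 without a peak in any library. The 10 endothelial and neural markers summed to 38.3 to 52.2 and 38.6 to 46.0, with 3 of 10 without a peak. The 10 immune markers summed to 215 to 233 and 210 to 214, of which *Cd79a* alone held 92.2 to 103 and 85.4 to 91.9, and 2 of 10 had no peak.

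At the targeted gene, *Ahr* (chromosome 12, 35497974 to 35535038, minus strand), the AHR KO libraries had peaks inside the gene that the WT libraries lacked. The promoter region over exon 1 (35534094 to 35535550) had a peak in every library, at heights of 6.18 and 6.02 in WT and 5.12, 5.47 and 4.70 in AHR KO (limma, log2 difference −0.26, SE 0.09, adjusted p = 0.182). The AHR KO libraries were the lower there, without reaching the threshold. A region 13977 bp downstream of the start (35520470 to 35521652) had no peak in either WT library and heights of 0.617, 0.967 and 1.61 in AHR KO. A neighbouring region (35522914 to 35524762) likewise had no WT peak and heights of 0.637, 0.818 and 1.09, and a weaker one over exon 10 (35503716 to 35504437) had 0.247, 0.263 and 0.350. No library had a peak over exons 2 to 9 or exon 11, so the deletion of an exon cannot be read from these peaks. In d4 ENR, the region at 35522914 had a peak in each of the 2 AHR KO libraries and none in the 3 of WT. Summed over the gene and its 5 kb flanks, peak coverage was 75.4 and 78.2 ppm in WT and 85.0, 92.4 and 101 in AHR KO (limma, log2 difference 0.27, SE 0.08, adjusted p = 0.344).

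**Figure D1:**
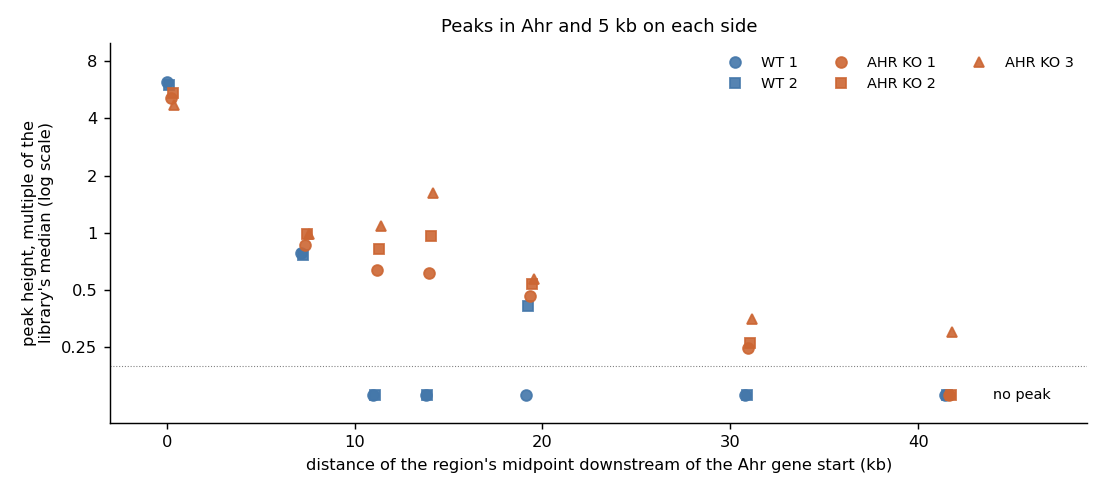
Peak height, as a multiple of the library's median on a log scale, of every region in *Ahr* and 5 kb on each side, against the distance of its midpoint from the gene start in kb. Each symbol is 1 of 5 WENR libraries, and those under the dotted line had no peak. The regions near 11 and 14 kb have peaks in the 3 AHR KO libraries and in neither WT library.

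An intergenic region 157728 bp downstream of the *Ahr* start (12, 35376157 to 35378463) passed the test. Its height was 1.65 in both WT libraries and 0.954, 0.731 and 0.634 in AHR KO (limma, log2 difference −1.11, SE 0.17, adjusted p = 0.0196), and it was lower in AHR KO in d4 ENR as well, by 1.13 on the log2 scale (limma, adjusted p = 0.0319).

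Which regions differ in height between the genotypes was asked over the 52295 regions with a peak in all 5 libraries. AHR KO organoids had 84 taller regions (0.161% of those tested) and 155 lower regions (0.296%) at a Benjamini-Hochberg adjusted p under 0.05 (limma). Together these 239 regions are 0.457% of those tested, and 7522 had an unadjusted p under 0.05. The groups did not overlap in any called region, but this order was common: AHR KO was the taller without overlap in 14.3% of all regions tested and the lower in 16.8%. The differences of called regions ran from −1.87 to 1.53 on the log2 scale. The counts rest on both WT libraries and on AHR KO replicate 2, since without WT replicate 1 there were 1 taller and 2 lower regions, without WT replicate 2 there were 0 and 6, and without AHR KO replicate 2 there were 5 and 10. Scaled by fragments instead of by the median, 140 were taller and 65 lower. Measured as fold enrichment over the local background instead of pileup, 0 regions passed in either direction (4807 at an unadjusted p under 0.05).

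**Figure D2:**
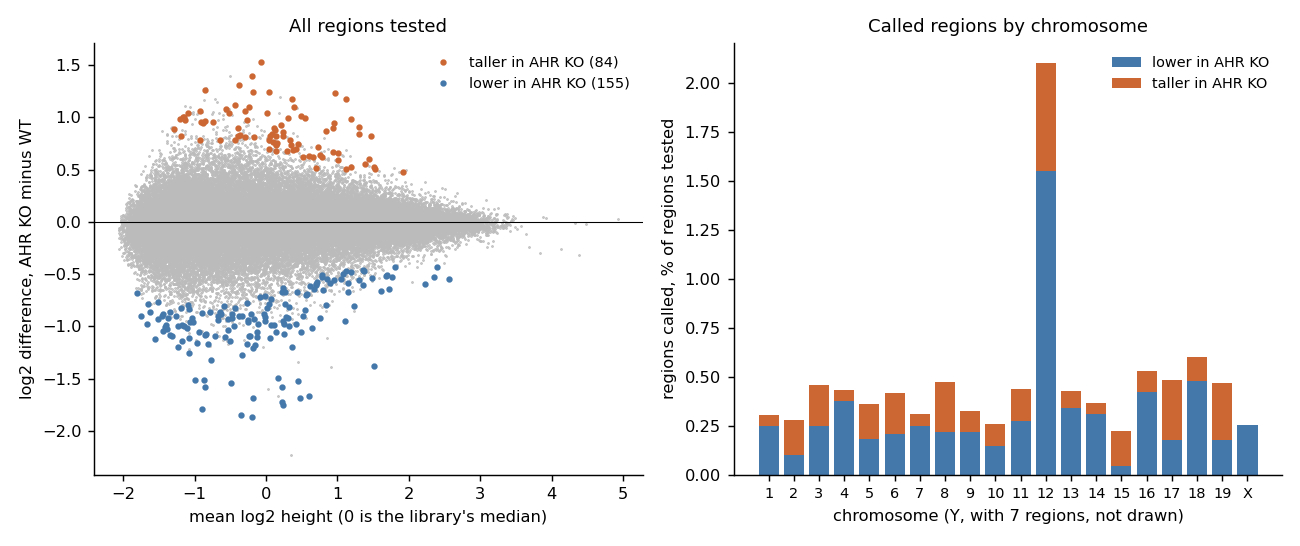
Left, log2 height difference (AHR KO minus WT) of each region tested against its mean log2 height, where 0 is the library's median, with the 84 taller and 155 lower regions coloured. Right, the share of regions tested that were called, in percent, on each chromosome, with chromosome 12 at 2.10%.

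Called regions were mostly distal. Introns and intergenic sequence held 77.4% of the taller and 89.7% of the lower regions, beside 71.5% of all regions tested. Promoters, defined as the 1 kb before and the 100 bp after a start, held 13 of 84 taller (15.5%) and 8 of 155 lower regions (5.16%), beside 20.9% of all. Height differences were also narrower at promoters over all regions tested, with an SD across regions of 0.16 on the log2 scale there and 0.24 elsewhere.

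Of the 8 taller regions with the largest differences, all but 1 lay in introns. The largest was in an intron 13752 bp from the start of *Mboat2*, a lysophospholipid acyltransferase (12, 24843381 to 24845882), where heights were 0.487 and 0.526 in WT and 1.10, 1.41 and 1.99 in AHR KO (2.88-fold, log2 SE 0.20, limma adjusted p = 0.0130). The next lay in *Stk39*, which encodes a kinase that regulates ion cotransporters (2, 68430591 to 68431759), with 0.471 and 0.513 in WT and 0.956, 1.17 and 1.93 in AHR KO (2.63-fold, limma adjusted p = 0.0272). In both regions every AHR KO library was above every WT library and AHR KO replicate 3 was the tallest. *Stk39* held 3 taller regions, the other two with log2 differences of 0.98 and 1.17. Near *Drd5*, a dopamine receptor gene, heights were 0.415 and 0.480 in WT and 0.789, 1.18 and 1.45 in AHR KO (2.48-fold, limma adjusted p = 0.0272). At *Chn2*, which encodes an inhibitor of Rac signalling, they were 0.326 and 0.331 against 0.656, 0.847 and 0.887 (2.40-fold, limma adjusted p = 0.0159). All WT heights at both genes were below the library's median. The region nearest to *Pqlc2*, a lysosomal amino acid transporter gene, lay 34690 bp from its start. Heights there were 0.439 and 0.633 in WT and 0.950, 1.17 and 1.74 in AHR KO (2.36-fold, limma adjusted p = 0.0399). In the region nearest to *Tenm3*, an adhesion receptor gene, 353725 bp from its start, they were 0.512 and 0.738 in WT and 1.15, 1.32 and 2.02 in AHR KO (2.36-fold, limma adjusted p = 0.0332). The region nearest to *Arrdc3*, an arrestin-related gene, lay 288093 bp from its start. It was tall in both genotypes, at 1.16 and 1.18 in WT and 2.49, 2.44 and 3.41 in AHR KO (2.35-fold, limma adjusted p = 0.00251). The region nearest to *Gm21863* (12, 20196146 to 20197693) lay 242414 bp from that gene's start and was classed as a promoter by another transcript start. It had 1.43 and 1.25 in WT and 2.79, 3.46 and 2.85 in AHR KO (2.25-fold, limma adjusted p = 0.00184). These last 2 regions had the smallest adjusted p-values of the 8. Measured as fold enrichment none of the 8 passed, and the log2 differences were −0.00437 at *Gm21863* and 0.05 to 0.99 at the others.

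The lower regions with the largest differences included sites near a Wnt modulator, a mucin glycosylation enzyme and the hypoxia factor *Hif1a*. The largest lay 99130 bp from the start of *Dact1*, which encodes a Dishevelled-binding protein of the Wnt pathway (12, 71407885 to 71410144), with heights of 1.77 and 2.05 in WT and 0.612, 0.645 and 0.360 in AHR KO (limma, log2 difference −1.87, SE 0.22, adjusted p = 0.00468). Near *Gcnt3*, which encodes a branching enzyme of mucin glycans (9, 70079879 to 70084291), heights were 1.25 and 1.02 in WT and 0.292, 0.343 and 0.350 in AHR KO (limma, log2 difference −1.79, adjusted p = 0.00179). A further region 1798 bp upstream of the *Gcnt3* start was lower by 1.03 on the log2 scale (limma, adjusted p = 0.0246). *Hif1a*, which like AHR is a bHLH-PAS factor that pairs with ARNT, was the nearest gene of 3 lower regions. The one with the largest difference (12, 73871890 to 73874141) lay 28360 bp upstream of the *Hif1a* start. It had 2.71 and 2.19 in WT and 0.803, 0.866 and 0.545 in AHR KO (limma, log2 difference −1.75, adjusted p = 0.00194), and the other 2 differed by −0.78 and −0.66. The region nearest to *Ntsr2*, a neurotensin receptor gene, lay 73142 bp from its start. Heights there were 3.16 and 2.49 in WT and 1.37, 1.03 and 0.477 in AHR KO (limma, log2 difference −1.68, adjusted p = 0.0392). AHR KO replicate 3 was the lowest library at *Dact1*, *Hif1a* and *Ntsr2*, and not at *Gcnt3*. In the region nearest to *Adam28*, a metalloprotease gene, 61952 bp upstream of its start, heights were 2.01 and 1.43 in WT and 0.522, 0.551 and 0.360 in AHR KO (limma, log2 difference −1.85, adjusted p = 0.00308). At *Rnf157*, a ubiquitin ligase gene, they were 1.76 and 1.78 in WT and 0.571, 0.553 and 0.528 in AHR KO (limma, log2 difference −1.68, adjusted p = 0.000500). Repeats, soft-masked in the reference, make up 68.8% of the *Adam28* region and 79.8% of the *Rnf157* region, beside a median of 11.98% over all regions tested. Reads there may be shared with other copies. Measured as fold enrichment, the difference turned to 0.64 at *Hif1a* and 0.0246 at *Dact1*, and it was −0.71 to −0.10 at the other 6 lower regions, none of which passed.

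**Figure D3:**
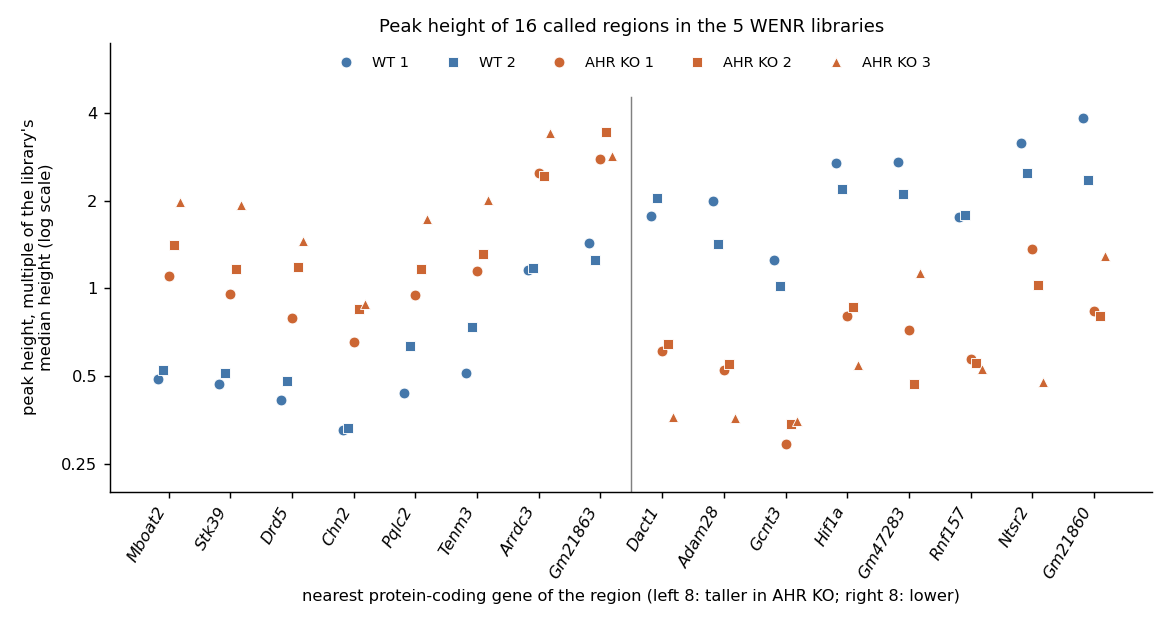
Peak height, as a multiple of the library's median on a log scale, of the 8 taller and 8 lower regions with the largest differences, 1 for each nearest protein-coding gene. Each symbol is 1 library, and in all 16 regions the 3 AHR KO libraries lie on one side of the 2 WT libraries.

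AHR KO replicate 3 lay farthest from WT in most called regions. It was the tallest AHR KO library in 62 of 84 taller regions (73.8%) and the lowest in 122 of 155 lower regions (78.7%), beside 42.4% and 50.2% of all tested regions with the same sign of difference. Without it the limma fit called more regions, 292 taller and 531 lower. Without AHR KO replicate 1, the AHR KO library nearest to WT replicate 1 in height, it called 848 and 906.

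Chromosome 12, which carries *Ahr*, held 42 of the 239 called regions, 11 taller and 31 lower, or 2.10% of its 2000 regions tested. The other autosomes held 190 among 49102 regions, or 0.387%. Within 15 Mb of *Ahr* 12 of 312 regions were called (3.85%), from 15 to 45 Mb away 27 of 867 (3.11%) and farther away 3 of 821 (0.365%). The regions at *Mboat2*, *Gm21863*, *Dact1*, *Hif1a* and *Ntsr2* are among the 42, and *Ahr* deletion and the DNA that came with the floxed allele on this chromosome cannot be told apart here. On the autosomes without chromosome 12, fitted by themselves, 57 regions were taller and 92 lower (limma). The 7 regions tested on the Y chromosome all lay in 1 stretch, between 90738478 and 90813032, so they do not stand for the rest of that chromosome. Of these 7, 4 were called, all lower and all between 90738478 and 90808923. The tallest of them in WT, nearest to *Gm21860*, had 3.86 and 2.36 in WT and 0.838, 0.801 and 1.29 in AHR KO (limma, log2 difference −1.66, adjusted p = 0.0101), and the other 3, all nearest to *Gm47283*, differed by −1.50 to −1.73.

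The sequence of the regions moved with the direction of their difference. Motif letters were searched on both strands in the central 300 bases of each region: TGACTCA and TGAGTCA for AP-1, ACATTCC and GCATTCC for TEAD, GCAATAAA, GCCATAAA, GTAATAAA and GTCATAAA for CDX2, TGTTTAC and TGTTTGC for FOXA, and AGATAA for GATA. CAAAGTCCA and CAAAGTTCA were searched for HNF4, CCGGAAGT for ETS, CTTTGAA and CTTTGAT for TCF/LEF, and TNGCGTG for AHR:ARNT, where N is any base. No string of one motif lies inside a string of another. AP-1 letters were present in 23 of 84 taller regions (27.4%), 16 of 155 lower regions (10.3%) and 15.4% of all regions tested. CDX2 letters went the other way, in 7 of 84 taller regions (8.33%), 28 of 155 lower regions (18.1%) and 7.45% of all. FOXA letters were in 16.7% of the taller, 21.9% of the lower and 11.7% of all regions. On autosomes other than chromosome 12 the shares of AP-1 were 28.8% of taller and 11.97% of lower regions, and those of CDX2 were 9.59% and 17.9%. Letters of the AHR:ARNT site were in 1 of 84 taller and 3 of 155 lower regions, beside 4.34% of all. The other letters, in the order taller, lower and all, were in 9.52%, 12.3% and 9.66% for TEAD, 9.52%, 12.9% and 10.9% for TCF/LEF, and 10.7%, 18.1% and 13.5% for GATA. Letters of HNF4 were in 3 taller (3.57%) and 1 lower region (0.645%), beside 1.84% of all. Those of ETS were in 0 taller and 0 lower regions, beside 1.42% of all, a share at which sets of this size may hold few or none. These shares describe the regions called and carry no test, and a match is not a bound site.

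For AP-1 and CDX2 the shares also moved with the difference over the 41378 regions tested outside promoters, called or not. These regions were put into 10 equal parts by their log2 difference. CDX2 letters were in 17.0% of the part lowest in AHR KO, with a median difference of −0.42, then in 11.7% and 10.3% of the next parts, and in 6.74% of the tallest part, with a median difference of 0.37. AP-1 letters rose from 13.3% of the lowest part to 22.4% and 29.1% of the tallest 2 parts, and TEAD letters from 10.0% to 14.4%. The TEAD shares were 11.6% and 12.6% without WT replicate 1, and in called regions TEAD letters were the more frequent among lower ones. GATA letters were in 20.1% of the lowest and 15.3% of the tallest part. Under every other setting of the height fit, each library left out in turn included, the CDX2 share was 13.8% to 17.7% in the lowest and 6.37% to 7.35% in the tallest part, and the AP-1 share 12.2% to 15.4% and 24.4% to 31.1%. Fragment scaling and the fit without trend keep the order of the differences, so these settings could not change the shares. GC content moved with these parts too, with a median of 44.7% in the lowest part, 48.4% in the 7th and 46.9% in the tallest, and its part in the shares was not tested.

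**Figure D4:**
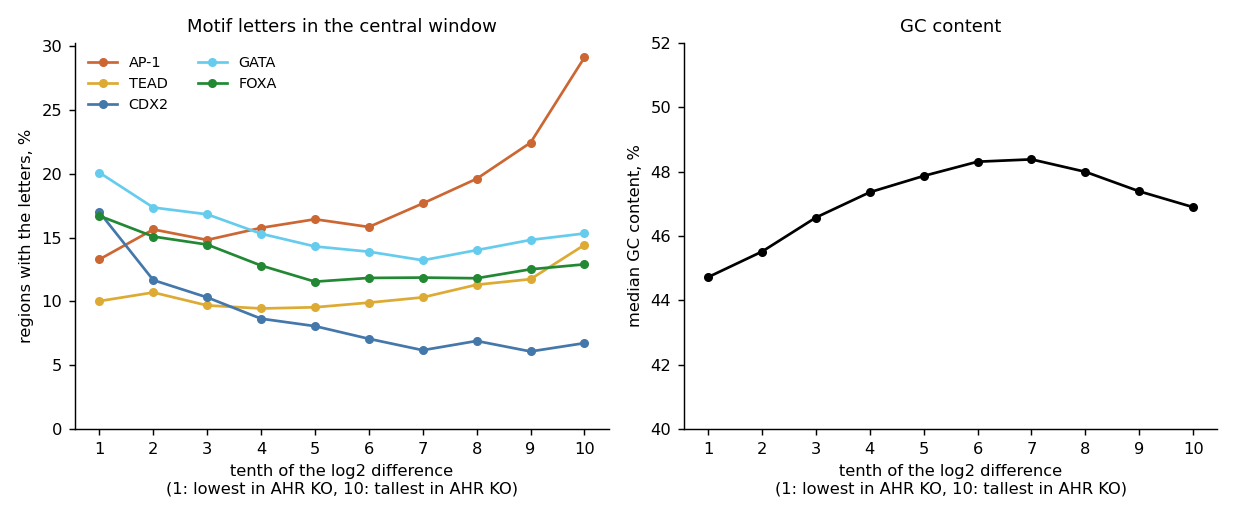
Left, share of regions outside promoters, in percent, whose central 300 bases hold the letters of each motif, in 10 equal parts of the log2 height difference from lowest (1) to tallest (10) in AHR KO. Right, the median GC content of the same parts in percent. AP-1 letters reach 29.1% in the tallest part, and CDX2 letters reach 17.0% in the lowest.

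In d4 ENR the shares ran differently, a difference between the media that was not tested. Over the 19444 such regions with a peak in all 10 libraries, CDX2 letters were in 16.1% of the part lowest in AHR KO and 5.40% of the tallest part in WENR, and in 8.02% and 9.77% in d4 ENR. AP-1 letters were in 11.98% and 23.3% in WENR and in 18.5% and 12.4% in d4 ENR. The d4 ENR libraries differ between genotypes in the share of coverage in peaks, 14.1% to 30.9% in WT and 33.8% and 44.2% in AHR KO, and the part of this in the shares was not tested.

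Among the target genes of AHR, a region passed at *Cyp1b1*, which encodes an AHR-induced cytochrome P450. The region over its first exon (17, 79713459 to 79716315) had heights of 3.22 and 3.11 in WT and 2.43, 2.33 and 2.10 in AHR KO (limma, log2 difference −0.47, SE 0.09, adjusted p = 0.0498). A region 31336 bp upstream had 1.31 and 1.33 in WT and 0.849, 0.925 and 0.784 in AHR KO without passing (limma, log2 difference −0.64, adjusted p = 0.0627). Each AHR KO library was below both WT libraries in these 2 regions, and the other 4 regions nearest to *Cyp1b1* had differences from −0.45 to 0.18. Neither region nearest to *Cyp1a1* passed, with differences of −0.18 and −0.33, nor did any at *Ahrr*, the AHR repressor gene, or *Tiparp*, an AHR-induced mono-ADP-ribosyltransferase gene. Of 71 regions nearest to the 18 genes of this list, 0 were taller and 2 lower (2.82%, beside 0.457% of all), those at *Cyp1b1* and downstream of *Ahr*.

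Called regions near other listed genes were few. Of 248 regions tested near 40 genes of migration, adhesion and matrix, 2 were taller and 2 lower, 1.61% beside 0.457% of all. The taller ones lay near *Col4a1*, a basement membrane collagen gene, with 1.53 and 1.63 in WT and 2.24, 2.37 and 2.52 in AHR KO (limma, log2 difference 0.59, adjusted p = 0.0257), and 469598 bp upstream of *Zeb2*, a repressor of epithelial genes (limma, log2 difference 0.95, adjusted p = 0.0346). The lower ones lay near the semaphorin and VEGF co-receptor genes *Nrp1* and *Nrp2*. The *Nrp2* region had 1.65 and 1.79 in WT and 0.928, 0.876 and 0.693 in AHR KO (limma, log2 difference −1.06, adjusted p = 0.0168), and the *Nrp1* region 0.646 and 0.625 in WT and 0.304, 0.390 and 0.222 in AHR KO (limma, log2 difference −1.10, adjusted p = 0.0408). Among 126 regions near AP-1 genes 1 (0.794%, beside 0.457% of all), upstream of *Jun*, passed, and it was lower, by 0.89 on the log2 scale (limma, adjusted p = 0.0459). Single calls near other listed genes were taller 43004 bp downstream of the *Car1* start, a colonocyte carbonic anhydrase gene (limma, log2 difference 0.98, adjusted p = 0.0408), taller near the enteroendocrine gene *Chga* (0.56, adjusted p = 0.0366), and lower near the glutathione transferase gene *Gstm1* (−0.63, adjusted p = 0.0461). None of the 235 regions near 21 intestinal identity factors passed, nor of 57 near goblet cell, 120 near Notch pathway or 61 near Hox genes. With 0.457% of all regions called, lists of these sizes may hold few or none, so an empty list says little about its genes. At *Cdx2* the 3 regions had differences of −0.15 to −0.08, and over 45 regions nearest to *Sox9* none passed.

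A second measure joined presence and height of peaks in 1 value per gene, the peak coverage over the gene and 5 kb to either side, in ppm of the library's coverage in peaks. Of 16738 protein-coding genes tested, 0 had more (0%) and 0 less coverage (0%) in AHR KO at an adjusted p under 0.05 (limma), with 1772 at an unadjusted p under 0.05 (937 more and 835 less). The smallest adjusted p was 0.0613. Counts of 3 or 4 genes with more and 2 with less coverage came with 20 kb on each side, a larger pseudocount or scaling to fragments. The groups did not overlap in 15.2% of genes with more and 13.7% with less coverage in AHR KO.

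The genes of smallest p did not pass this test and are given as values. *Wasl*, which encodes the actin nucleation factor N-WASP, had 115 and 106 ppm in WT and 171, 180 and 174 in AHR KO (limma, log2 difference 0.66, SE 0.06, adjusted p = 0.0613). *Adamts9*, a matrix protease gene, had 29.1 and 27.8 in WT and 52.8, 47.9 and 51.1 in AHR KO (limma, log2 difference 0.82, SE 0.07, adjusted p = 0.0613). The AHR KO libraries lay close together and well above WT in both genes, which the choice by smallest p among genes without overlap favours. Heights did not follow: of the 5 regions nearest to each gene, 0 were called. Their median log2 height differences were −0.0226 at *Wasl* and 0.0274 at *Adamts9*. *Srp54c*, *Dynlt1b* and *Pold4* had differences of 1.41, 0.87 and 0.87, and were nearest to 1, 3 and 1 taller regions. *Srp54c* and *Dynlt1b* have near-identical copies that can share reads, so their values are uncertain, and that of *Pold4* turned to −0.21 over the gene body alone. In the other direction, *Adam32*, a gene of the metalloprotease family, had 153 and 165 in WT and 72.1, 56.5 and 55.7 in AHR KO (limma, log2 difference −1.37, SE 0.12, adjusted p = 0.0613), and it also held 2 lower regions. *Trim9*, a ubiquitin ligase gene, had 32.1 and 31.8 in WT and 9.87, 10.8 and 7.50 in AHR KO (limma, log2 difference −1.74, SE 0.16, adjusted p = 0.0613), with a lower region at its promoter. *Fcho2*, an endocytosis gene, *G2e3* and *Cdca7l* had differences of −0.63, −0.57 and −0.78. The 1 region nearest to *G2e3* was lower. No region nearest to *Fcho2* or *Cdca7l* was called, and their median log2 height differences were 0.10 and 0.05. *Srp54c*, *Trim9*, *G2e3* and *Cdca7l* lie on chromosome 12.

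No listed gene passed the coverage test either, so the 21 lists are described by their medians, beside a median of 0.00 on the log2 scale over all genes tested, or 0.07 with fragment scaling. Counts of members without overlap between the groups stand beside 13.7% of all genes with less and 15.2% with more coverage. Goblet cell genes had a median of −0.24 over 17 genes (−0.53 without WT replicate 1 and −0.13 with 20 kb on each side). Of the 17, 6 were covered less in AHR KO without overlap and 1 more. The 6 were *Clca3b* and *Clca1*, chloride channel regulator family genes, *Fcgbp*, a mucus protein gene, *Ccl9*, *Atoh1*, the master regulator of secretory cells, and *Creb3l1*. *Clca3b* had 24.2 and 23.5 ppm in WT and 14.5, 15.8 and 12.5 in AHR KO (limma, log2 difference −0.73, adjusted p = 0.150). *Atoh1* had 28.5 and 31.3 in WT and 25.2, 19.6 and 20.2 in AHR KO (limma, log2 difference −0.47, adjusted p = 0.319). *Muc2*, the main goblet cell mucin gene, was little covered in every library, at 3.90 and 3.44 in WT and 3.55, 2.21 and 0.714 in AHR KO, and its groups overlapped. Absorptive colonocyte genes had a median of −0.12 over 22 genes (−0.07 without AHR KO replicate 3 and −0.08 without WT replicate 1), with 6 covered less and 4 more without overlap. Intestinal identity factors had −0.07 over 21 genes, but −0.00709 without AHR KO replicate 3 and 0.00310 with fragment scaling. Of these, 5 were covered less and 3 more without overlap, the 5 including *Pparg* and *Vdr*, nuclear receptor genes, at −0.21 and −0.22.

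Fetal-like and regeneration markers had a median of 0.13 over 20 genes (0.07 without AHR KO replicate 3 and 0.20 with fragment scaling). Of them 9 were covered more in AHR KO without overlap and 0 less, beside 15.2% and 13.7% of all genes. *Anxa2*, a membrane-binding annexin gene of the fetal-like programme, had 323 and 326 ppm in WT and 382, 482 and 484 in AHR KO (limma, log2 difference 0.46, adjusted p = 0.289), and *Anxa1* had 55.2 and 54.1 against 61.8, 66.7 and 71.1 (limma, log2 difference 0.28, adjusted p = 0.307). *Clu*, a marker of revival stem cells, had 21.3 and 25.8 in WT and 26.9, 29.3 and 34.8 in AHR KO (limma, log2 difference 0.36, adjusted p = 0.422). YAP/TEAD targets had a median of 0.06 over 24 genes, with 2 more and 1 less without overlap, both shares below those of all genes. Their median was 0.02 without WT replicate 1, 0.03 without AHR KO replicate 3 and 0.11 without WT replicate 2 or AHR KO replicate 1. AP-1 factor genes had 0.08 over 17 (0.02 over the gene body alone), with 4 more and 1 less. Migration, adhesion and matrix genes had 0.05 over 40 (0.03 without AHR KO replicate 3 and 0.09 without AHR KO replicate 2), with 9 more and 4 less. The collagen genes *Col4a1* and *Col4a2* differed by 0.33 and 0.37 and *Nrp1* by −0.60. *Zeb1* was listed at 0 in both WT libraries and at 0.862, 1.49 and 1.69 ppm in AHR KO. Fibroblast markers had a median of 0.37 over 7 genes, but 0.04 without WT replicate 1, 0.19 without WT replicate 2 and 0.10 with the larger pseudocount, and *Col3a1* among them had 1.22 and 1.31 ppm in WT and 2.69, 1.95 and 3.77 in AHR KO. Their part in the matrix and migration values was not tested.

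**Figure D5:**
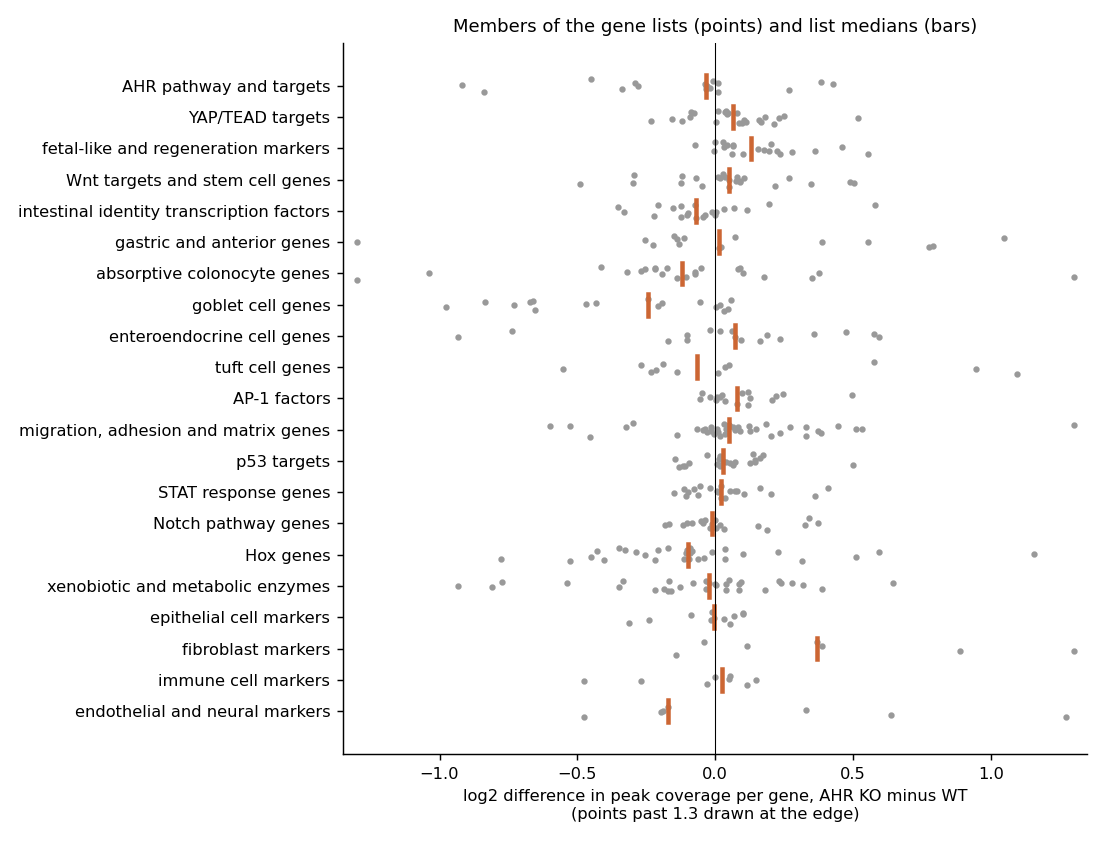
Log2 difference in peak coverage per gene (AHR KO minus WT) for the members of the 21 gene lists, drawn as points, with the median of each list as a bar. The goblet cell bar lies at −0.24 and that of fetal-like and regeneration markers at 0.13.

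The AHR pathway list had a median of −0.03 over 17 genes, with 5 genes covered less and 3 more without overlap, beside 13.7% and 15.2% of all genes. The median was −0.09 without WT replicate 1, −0.06 without AHR KO replicate 3 and 0.04 with fragment scaling. The 5 included detoxification genes: *Nqo1* had 44.3 and 32.8 ppm in WT and 28.9, 21.8 and 14.9 in AHR KO (limma, log2 difference −0.84, adjusted p = 0.367), and *Ugt1a6a* 185 and 157 in WT and 126, 107 and 53.9 in AHR KO (limma, log2 difference −0.92, adjusted p = 0.415). *Nfe2l2*, the gene of the antioxidant factor NRF2, had 248 and 240 in WT and 198, 200 and 200 in AHR KO (limma, log2 difference −0.29, adjusted p = 0.150). AHR KO libraries were close together at *Nfe2l2* and spread widely at the other two. *Cyp1b1* had 71.6 and 73.8 in WT and 58.3, 54.4 and 47.2 in AHR KO (limma, log2 difference −0.45, adjusted p = 0.245). At *Cyp1a1* coverage was low, 13.1 and 12.8 in WT and 13.9, 9.07 and 9.41 in AHR KO, and the groups overlapped. They also overlapped at *Ahrr*, *Tiparp*, *Cdx2* and *Sox9*, with differences of −0.04, −0.03, 0.03 and 0.05. Among xenobiotic and metabolic enzymes 7 of 31 were covered less and 4 more without overlap, beside 13.7% and 15.2% of all genes, *Ugt1a1* at −0.81, which shares its last exons with *Ugt1a6a*.

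The Wnt and stem cell list had a median of 0.05 over 23 genes, or −0.0136 without WT replicate 1, and went both ways. *Cd44*, a Wnt target and adhesion receptor gene, had 112 and 135 ppm in WT and 155, 161 and 154 in AHR KO (limma, log2 difference 0.35, adjusted p = 0.289). *Ephb3*, which places cells along the crypt, had 141 and 153 in WT and 120, 121 and 117 in AHR KO (limma, log2 difference −0.30, adjusted p = 0.201), but 0.04 over the gene body alone. Hox genes had a median of −0.10 over 30 genes (−0.19 without AHR KO replicate 1). *Hoxd12* and *Hoxd13* stood out above it at 1.16 and 0.59, and *Hoxc10* below at −0.78. *Hoxd12* had 24.8 and 37.5 in WT and 61.1, 49.1 and 108 in AHR KO (limma, adjusted p = 0.333). Notch pathway, p53 target and STAT response lists had medians of −0.01, 0.03 and 0.02, all near 0, and the sign of the Notch and STAT medians turned when some single libraries were left out.

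A region can also differ by having no peak at all. Of 75660 regions with a peak in any of the 5 libraries, 1009 had a peak in each AHR KO library but in neither WT library (1.33%), and 651 in both WT and no AHR KO library (0.86%). These counts have no replicate error and no test. With all lists shortened to 61485 peaks the order changed, to 788 AHR KO-only and 874 WT-only regions. Such peaks were weak, with median heights of 0.337 (AHR KO-only) and 0.326 (WT-only), beside 0.597 over all regions, and an absent peak means only that the caller's threshold was missed. AP-1 and CDX2 letters differed in the same direction as for height, in regions that the height fit did not hold: AP-1 in 26.5% of AHR KO-only, 12.9% of WT-only and 16.3% of all regions, and CDX2 in 6.84%, 15.2% and 7.83%.

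Near secretory and absorptive genes both sets were small and are given as counts, with no test of a difference. Of 111 regions near enteroendocrine genes, 5 were AHR KO-only (4.50%) and 0 WT-only. They lay near *Cck*, *Chga*, *Isl1*, *Tac1* and *Tph1*, genes of gut peptides, of serotonin synthesis and, for *Isl1*, of a homeobox factor. Beside them stand 1.33% AHR KO-only and 0.86% WT-only of all regions. Of 45 near tuft cell genes, 3 were AHR KO-only (6.67%) and 0 WT-only, the 3 at *Pou2f3*, the tuft cell regulator, and *Ptgs1*. Of 150 near absorptive colonocyte genes, 1 was AHR KO-only and 5 were WT-only (3.33%), at *Car2*, *Fabp2*, *Guca2a*, *Hsd3b3* and *Slc26a2*, and of 85 near goblet cell genes 1 was AHR KO-only, at *Atoh1*, and 3 were WT-only (3.53%), at *Agr2*, *Clca1* and *Muc2*. These genes were picked out after their values were seen. The intronic region nearest to *Car2*, a carbonic anhydrase gene (3, 14889647 to 14890070), was among the tallest of the WT-only set, with pileups of 180 and 191 fragments, and that near *Guca2a*, the guanylin gene, had 109 and 102. In the other direction the tallest AHR KO-only region lay in an intron near *Nupr1*, a stress response gene (7, 126628079 to 126628373), with pileups of 183, 263 and 291 and no peak in any d4 ENR library.

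The called regions were then looked up in the d4 ENR libraries. Of 84 taller regions, 31 had a peak in all 5 d4 ENR libraries (36.9%) and 11 in none. Of 155 lower regions, 113 did (72.9%), beside 54.0% of all regions tested. Of the 31, 20 were taller in AHR KO in d4 ENR too (64.5%, beside 41.6% of the 28220 regions with a peak in all 10), and of the 113, 77 were lower (68.1%, beside 58.4%). On chromosome 12 it was 5 of 5 and 19 of 22, and on the other autosomes 15 of 26 (57.7%) and 52 of 85 (61.2%), the latter close to the share over all regions. Tested in d4 ENR over these 28220 regions, 3 of the 31 and 19 of the 113 passed in the same direction (limma), beside 0.422% taller and 0.624% lower of all. Of these, 1 and 8 lay on the autosomes other than chromosome 12. Among those that passed were the region at *Rnf157* on chromosome 11, at −1.54 (limma, adjusted p = 0.000815), and that nearest to *Hif1a* on chromosome 12, at −1.28 (limma, adjusted p = 0.0110). The test of the difference between the media itself, an interaction term, passed in 0 of 28220 regions (0%, limma), with 3827 at an unadjusted p under 0.05. Calls in 1 medium only therefore do not show a difference between the media.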

How the data were processed

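Open chromatin was measured by Omni-ATAC in 5 WENR libraries (2 WT, 3 AHR KO), with 5 d4 ENR libraries used for look-up only. Per the study's methods, the authors trimmed reads, aligned them to GRCm38 with BWA (nf-core/atacseq) and called broad peaks in each library, without pooling replicates. Per the file headers, MACS 2.2.7.1 ran on paired ends without a control, at q 0.1 for broad and 0.05 for narrow regions, with a background window of 10000 bp. The deposited peak lists give pileup, a signal in fragments, the fold enrichment, a ratio to the local background, and −log10 q. Read counts were not used here, so a count test was replaced by limma on log values.

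Peaks of the 5 libraries were merged (1 bp overlap). The log2 pileup, weighted by length over a library's peaks in a region, was centred on the library's median over 52295 regions with a peak in all 5 libraries, and fitted by limma 3.58.1 in R 4.3.3 with trend and genotype as the term. Pileup times length over protein-coding genes with 5 kb on each side, in ppm of coverage in peaks, was fitted as log2(value + 0.439), so that changes of low genes are understated. Genes needed coverage in 2 libraries. Benjamini-Hochberg adjustment covered all regions or all genes tested. Both fits were tested on simulated data. Python 3.11.15, numpy 2.4.6, pandas 2.3.3, scipy 1.17.1, pysam 0.24.0 and matplotlib 3.10.9 were used, and sequences came from the GRCm38 reference. Depth is known as fragments per library, and peak pileup gives no counting interval.

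Named were the 8 called regions of largest difference in each direction (1 per nearest gene), *Ahr*, *Cyp1a1*, *Cyp1b1*, *Ahrr*, *Tiparp*, *Cdx2* and *Sox9*, the 5 genes of smallest p in each direction as none was called, and up to 2 per list. Other genes were named after their values were seen. Members and lists were chosen with earlier results of these data known. Replicate numbers were not taken as pairs, because the labels name no shared animal. The d4 ENR look-up, the motif parts and the distances from *Ahr* were added after seeing the data. The authors' own comparisons were not used.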

Additional observations from a re-analysis of the deposited data

How the results depend on the processing

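Of the counts of called regions, 84 taller and 155 lower, most moved by more than 1.5 times with a setting, and the cause was not tested. Fold enrichment in place of pileup gave 0 and 0, coverage 21 and 22, fragment scaling 140 and 65, and limma without trend 0 and 3. Lower regions numbered 97 after quantile normalization, 98 with peaks of −log10 q of at least 5, and 92 on autosomes without chromosome 12, where fewer regions were tested. Leaving out 1 library in turn gave 0 to 848 taller and 2 to 906 lower regions, and with 1 WT library left that library is assumed to vary like the others. Of the 239 called regions, 0 passed again under fold enrichment (214 had the same direction), 11 under coverage, 149 under fragment scaling and 209 of 226 with lists of equal length.

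Genes with more and less coverage, 0 and 0, became 4 and 2 with 20 kb on each side, 3 and 2 with the larger pseudocount, 4 and 2 with fragment scaling, and 0 and 0 to 1 when libraries were left out. Presence counts ran from 1447 to 2765 AHR KO-only and 947 to 1978 WT-only regions when a library was left out. Leaving out a library drops a condition, so these counts could only stay at or rise above 1009 and 651.

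With the replicate number as a block, 1394 regions were taller and 1631 lower, and 14 genes had more and 22 less coverage. Only AHR KO has a replicate 3, so the block takes up that library. The genotype difference in this fit rests on the libraries numbered 1 and 2 alone. Deviations from the group means correlated at r = 0.34 between the libraries numbered 1 and 0.044 between those numbered 2. They correlated at r = 0.29 between WT replicate 2 and AHR KO replicate 3, which share no number. With 2 WT libraries, each mirrors the other in its deviations, so these values cannot show a pairing. The labels give 2 shared numbers and name no shared animal. Whether libraries of the same number share an animal or a batch is not known from them and was not tested.

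Signs turned under fold enrichment for the regions at *Gm21863* (−0.00437), *Dact1* (0.0246) and *Hif1a* (0.64). In gene coverage they turned with 20 kb on each side for *Cyp1a1* (0.00714), *Cdx2* (−0.00536) and *Cd79a* (−0.0218), with fragment scaling for *Ahrr* (0.0342) and *Tiparp* (0.0415), over the gene body alone for *Pold4* (−0.21), *Ephb3* (0.0404), *Bax* (0.0263) and *Plk3* (−0.53), and without 1 library for *Ahrr* (WT replicate 2, range −0.0875 to 0.0138), *Tiparp* (AHR KO replicate 1, −0.0588 to 0.00564) and *Cdx2* (AHR KO replicate 1, −0.0272 to 0.0812).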
